A study of Mus musculus with 2 samples.

Results

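The transcripts described here are those of 10 genes of hepatic insulin signalling and its fasting counterpart: the insulin receptor Insr, the receptor substrates Irs1 and Irs2, the transcription factors Foxo1 and Foxo3, the secreted FOXO1 target Igfbp1, and the regulators Ppargc1a, Trib1, Sik1 and Crtc2. They were taken by symbol from a table of 24054 genes, and all 10 averaged 1 TPM or more over the libraries (TPM, a share of the transcript pool scaled for transcript length), as did 11623 genes in all, which are called expressed below. The genes were chosen by role, with the KO and WT TPM values of these same libraries in view, so the values below describe the libraries and carry no test. The study compared liver of male mice aged 8 to 12 weeks, labelled C57BL/6, of 2 genotypes, Pgrmc1 KO (Pgrmc1 -/Y) and WT. The floxed line was made on C57BL/6N. In the KO mice the first exons of Pgrmc1, an X-linked gene for a heme-binding membrane protein, were removed in the whole body by Sox2-Cre, so the liver was not the only organ without Pgrmc1. RNA of 5 mice per genotype, 2.5 μg each, was combined before library preparation, which left 1 library per genotype and no measure of the spread between mice. The mice were kept with free access to feed, and whether those used for RNA-seq were fasted, and at what hour they were killed, is not given in the sources used here.

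Insulin binds its receptor on hepatocytes, and the receptor phosphorylates Irs1 and Irs2, which carry the signal through PI3-kinase to the kinase AKT. AKT phosphorylates FOXO proteins and so keeps them out of the nucleus. In the fasted liver that restraint is lifted, and FOXO1, together with the glucagon and cAMP pathway through CREB and its coactivator Crtc2, drives genes of glucose output and Igfbp1. Irs2 and Igfbp1 are classical transcripts of the fasted liver that insulin lowers, and Sik1 is a kinase induced by cAMP that phosphorylates CRTC proteins and thereby limits the same programme.

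The libraries were checked first. Pgrmc1 stood at 0.68 TPM in the KO and 949.49 TPM in the WT library. The KO library was thus the one that lacked the targeted transcript. Alb, the hepatocyte albumin gene, stood at 47241.79 TPM in the KO and 49729.07 TPM in the WT library, and the 10 hepatocyte markers summed to 92406.5 and 95416.1 TPM. The authors' second table, of read totals per gene scaled between libraries, estimates 22086688 reads in KO and 29710410 in WT. Each of the 10 genes rested on between 218 and 7613 estimated reads in a library. The 95% intervals given below were computed from these reads (Clopper-Pearson, exact) for the KO/WT ratio of the scaled totals, and they cover counting error alone. The log2 change of a gene was taken between its TPM values after 1 was added to each, log2((KO TPM + 1)/(WT TPM + 1)), which pulls the change of a low gene towards 0.

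Of the 10 genes, Irs2, Sik1 and Igfbp1 were more than 2-fold higher in the KO library by the ratio of scaled totals, and the other 7 lay between the limits of 0.6-fold and 1.4-fold. Both limits follow the fold change that the study asked for in its lists of changed genes. The study asked beside it for a probability of differential expression, which is not used here. On the TPM scale, 3 of the 10 genes were up (fold of at least 1.4) and 0 were down (fold of at most 0.6), with the same limits passed upward by 1.09% and downward by 0.301% of the 11623 genes. The shares over all genes are given for scale only, since the same contrast was in view when the genes were chosen. The median log2 change was 0.06 over the 10 genes and -0.01 over all 11623 genes.

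The promoters are shown for the members that stood highest and for which RefSeq (GRCm38.p6) gave a sequence, beside Irs1 as the paralog of Irs2 and G6pc as another FOXO1 target that was higher in KO. RefSeq promoters were found for 6 of the 10 genes (Irs1, Irs2, Igfbp1, Foxo1, Foxo3 and Ppargc1a). Each run holds the 250 bases before the annotated start site on the strand of the gene, and capitals mark a match to TGTTTTG or its reverse complement CAAAACA (a core of insulin response elements), to TGACG or CGTCA (the short site of a cAMP response element), or to TATAAA. The windows lie at chr8:11008930-11009179 (minus strand) for Irs2, chr11:7197537-7197786 (plus strand) for Igfbp1, chr1:82291440-82291689 (minus strand) for Irs1 and chr11:101367466-101367715 (plus strand) for G6pc.
Irs2: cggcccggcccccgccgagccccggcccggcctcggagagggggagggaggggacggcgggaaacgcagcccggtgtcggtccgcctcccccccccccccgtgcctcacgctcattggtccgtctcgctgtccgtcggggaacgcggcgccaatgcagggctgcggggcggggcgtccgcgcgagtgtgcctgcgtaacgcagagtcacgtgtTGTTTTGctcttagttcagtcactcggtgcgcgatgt
Igfbp1: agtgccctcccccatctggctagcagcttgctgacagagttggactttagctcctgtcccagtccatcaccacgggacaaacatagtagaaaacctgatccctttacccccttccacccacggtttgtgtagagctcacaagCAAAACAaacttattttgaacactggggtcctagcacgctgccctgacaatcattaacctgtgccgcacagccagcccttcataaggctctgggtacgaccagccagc
Irs1: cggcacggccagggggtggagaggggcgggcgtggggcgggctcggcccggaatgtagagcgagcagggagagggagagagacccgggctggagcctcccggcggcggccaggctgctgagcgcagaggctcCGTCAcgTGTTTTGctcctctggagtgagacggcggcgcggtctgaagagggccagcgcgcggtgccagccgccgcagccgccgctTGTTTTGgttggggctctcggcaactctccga
G6pc: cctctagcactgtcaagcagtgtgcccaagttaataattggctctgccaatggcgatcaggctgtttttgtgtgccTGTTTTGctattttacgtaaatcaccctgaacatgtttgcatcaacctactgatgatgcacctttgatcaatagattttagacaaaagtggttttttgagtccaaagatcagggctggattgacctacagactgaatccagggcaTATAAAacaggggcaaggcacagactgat

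The core TGTTTTG, searched on both strands, occurs in 5.56% of the 32851 promoter windows of this length in the table. It was found once in Irs2, from -37 to -31 relative to the start site, once in Igfbp1 in the reverse orientation from -108 to -102, once in G6pc from -174 to -168, and at 2 places in Irs1, from -111 to -105 and from -32 to -26. All positions count from the RefSeq start. The GENCODE start lies 471 bases downstream of it for Irs2 and 23 bases downstream for Irs1, so the positions in these genes depend on the annotation, whereas the starts of the other 4 genes differ by 1 to 5 bases. The core was not found in the windows of Foxo1, Foxo3 or Ppargc1a. Windows of Bcl6 and Gm6484 (Angptl8) were searched too and are not shown. The core was in 0 of the 2 windows of Bcl6, also a FOXO target that was higher in KO. It was not found in that of Gm6484, which was lower in KO. Irs1, with 2 matches, lay between the fold limits. Whether a match bears on the change of a gene was not tested. TGTTTAC, 1 form of FOXO site (3.17% of windows), and the full cAMP response element TGACGTCA (1.55%) were in 0 of the 6 windows. Other forms of FOXO site, the core above among them, are not covered by this count, so it does not show that such sites are absent. The short site TGACG (17.77% of windows) was found in Irs1, Foxo3, Ppargc1a and Bcl6 and lies within the full element where that is present. A match of letters does not show binding.

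Among the genes of the receptor step, Irs2 stood apart from Irs1 and Insr. Irs2 (chromosome 8, 10984681 to 11008929 of GRCm38, the mm10 assembly) was at 18.15 TPM in the KO and 6.69 TPM in the WT library, a log2 change of 1.32. Its ratio of scaled totals was 2.74 (95% interval 2.45 to 3.06, on 982 and 485 estimated reads). By log2 change it ranked 11 of 6221 genes that averaged 10 TPM or more and were above 0 in both libraries, between Cyp26a1 (1.33), a retinoic acid hydroxylase, and Arl4d (1.24), a small GTPase.

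Irs1 (chromosome 1, 82233105 to 82291439) was at 13.53 TPM in the KO and 11.37 TPM in the WT library, a log2 change of 0.23. Its ratio of 1.2 has an interval of 1.12 to 1.28, which lies above 1 and below the limit of 1.4. An annotated gene on the other strand, Gm9747, covers 30.9% of the exonic bases of Irs1, and the value of the strand setting used in counting is not given in the sources used here, so reads of the opposite strand cannot be set apart for Irs1. For Irs2 such an overlap covers 2.6% of exonic bases, by 9530052E02Rik, which is itself at 0.18 TPM in the KO and 0.07 TPM in the WT library.

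The order of the substrates was therefore opposite in the libraries. In WT, Irs2 was the lower of the pair, with 0.588 times the level of Irs1. In KO it was the higher, with 1.34 times that level. Irs2 made up 57.3% of the summed TPM of Irs1 and Irs2 in KO and 37.0% in WT. Such a ratio within a library does not depend on how the libraries were scaled to each other. It still rests on 1 pool per genotype. No spread between mice was measured, and the Irs1 level may include reads of the opposite strand.

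Insr (chromosome 8, 3150922 to 3279649), the tyrosine kinase receptor that starts the cascade, was at 44.62 TPM in the KO and 43.82 TPM in the WT library. Its ratio of 1.03 has an interval of 0.991 to 1.06, the narrowest of the 10 relative to its value, on 5781 and 7613 estimated reads. The interval holds 1 and lies inside the fold limits.

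**Figure D1:**
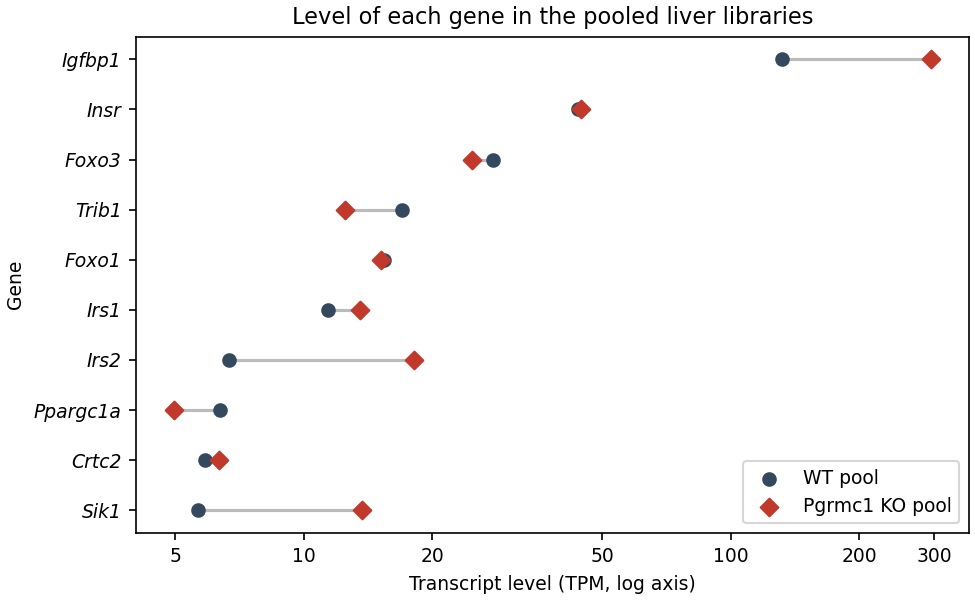
Transcript level of each of the 10 genes (TPM, log axis) in the WT pool (circles) and the Pgrmc1 KO pool (diamonds), 1 library each, so no error bar is drawn. The longest lines join the points of Irs2, Sik1 and Igfbp1, and Igfbp1 is the most abundant gene in both pools (132.17 TPM in WT and 294.54 TPM in KO).

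The transcription factors themselves differed little. Foxo1 (chromosome 3, 52268337 to 52350109), the main FOXO factor of hepatic glucose output, was at 15.19 TPM in the KO and 15.40 TPM in the WT library, a ratio of 0.994 (0.920 to 1.07). Foxo3 (chromosome 10, 42181845 to 42276695), its paralog, was at 24.71 TPM in the KO and 27.70 TPM in the WT library, a ratio of 0.900 (0.827 to 0.977). The interval of Foxo1 holds 1 and that of Foxo3 lies below it. An antisense gene, Gm20402, covers 7.8% of the exonic bases of Foxo1. Foxo1 transcript was 0.615 times that of Foxo3 in KO and 0.556 times in WT. FOXO activity is set mostly by phosphorylation and location of the protein, which RNA levels do not measure.

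Igfbp1 (chromosome 11, 7197787 to 7202546), which encodes a secreted protein that binds insulin-like growth factors, was at 294.54 TPM in the KO and 132.17 TPM in the WT library. The log2 change was 1.15 and the ratio 2.25 (2.16 to 2.35, on 5602 and 3356 estimated reads). It ranked 13 of the same 6221 genes, between Arl4d and G6pc (1.12), the glucose-6-phosphatase catalytic subunit that releases glucose from hepatocytes and that is also a FOXO1 target. Igfbp1 was 18.06% of the summed TPM of Igfbp1 to Igfbp7 in KO and 10.03% in WT.

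Among the regulators of the fasting programme, Sik1 was higher in KO while Ppargc1a and Trib1 were lower. Sik1 (chromosome 17, 31844248 to 31855804) was at 13.67 TPM in the KO and 5.66 TPM in the WT library, a log2 change of 1.14. Its ratio was 2.44 (2.17 to 2.74, on 836 and 463 estimated reads). With a mean under 10 TPM it is outside the ranking used for Irs2 and Igfbp1. Among 11609 expressed genes above 0 in both libraries it ranked 21, next to Igfbp1 at 20, and Irs2 ranked 16.

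Crtc2 (chromosome 3, 90253858 to 90264125), the CREB coactivator held in the cytoplasm by SIK kinases, was at 6.31 TPM in the KO and 5.86 TPM in the WT library. Its ratio of 1.09 has an interval of 0.905 to 1.30, which holds 1 and is the widest of the 10 relative to its value, on 218 and 271 estimated reads. Sik1 was 2.17 times as abundant as Crtc2 in KO and 0.966 times as abundant in WT. The paralog Sik2 was at 6.63 TPM in the KO and 6.12 TPM in the WT library, a ratio of 1.09 (0.937 to 1.27). Sik3 was at 12.38 and 14.09 TPM, a ratio of 0.885 (0.818 to 0.956), so both paralogs lay inside the limits that Sik1 passed.

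Ppargc1a (chromosome 5, 51454249 to 52115853), the coactivator PGC1 alpha that FOXO1 and CREB both act through and induce, was at 4.96 TPM in the KO and 6.36 TPM in the WT library. Its log2 change was -0.30 and its ratio 0.785 (0.697 to 0.885). Trib1 (chromosome 15, 59648654 to 59657099), a pseudokinase that brings the ligase COP1 to its substrate C/EBP alpha, was at 12.49 TPM in the KO and 16.98 TPM in the WT library. Its log2 change was -0.41 and its ratio 0.741 (0.674 to 0.814). Both intervals lie below 1, but neither gene reached 0.6-fold. For comparison, the 5th and 95th percentiles of all expressed genes were -0.27 and 0.27, and 5 of the 10 genes lay outside this range (Irs2, Igfbp1, Sik1, Ppargc1a and Trib1).

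Within the 10 genes, the 3 high genes did not share a level of expression. Igfbp1 was the most abundant of the 10 in both libraries, whereas in WT Sik1 was the least abundant and Irs2 stood above only Sik1, Crtc2 and Ppargc1a. These 4 lay between 5.66 and 6.69 TPM in WT, and no spread between mice was measured that could order them. The 10 genes spanned 59.4-fold in KO (4.96 to 294.54 TPM) and 23.4-fold in WT (5.66 to 132.17 TPM). Igfbp1 accounted for most of the difference in their sum, which was 448.17 TPM in the KO and 272.01 TPM in the WT library. Without Igfbp1 the sums were 153.63 and 139.84 TPM. No 100-base window of a transcript of any of the 10 genes was found in a transcript of another gene (GENCODE annotation of GRCm38).

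**Figure D2:**
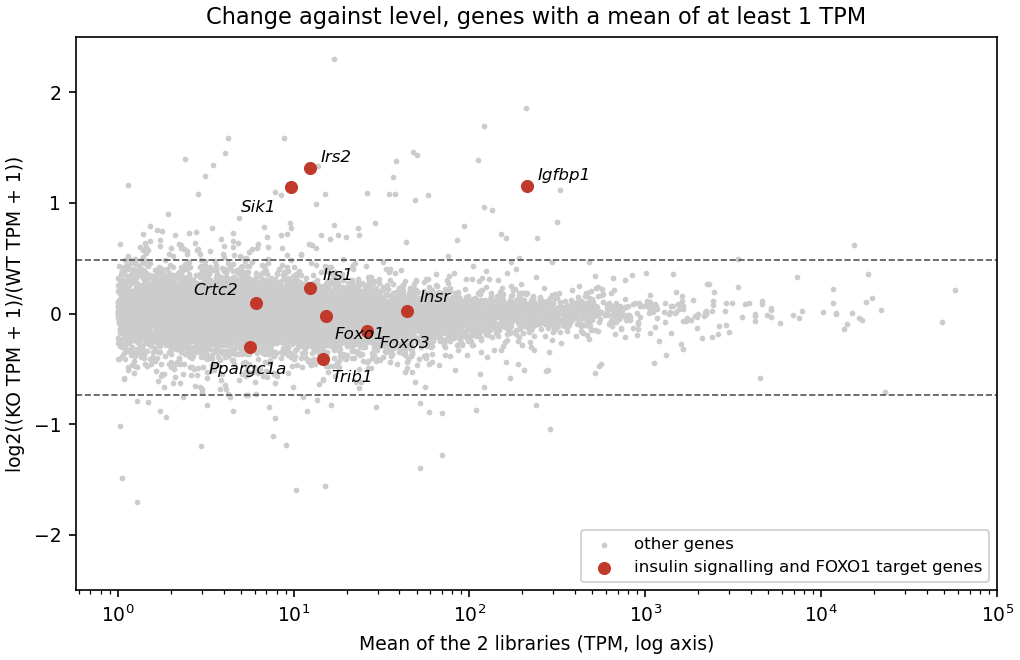
Log2 change (vertical axis) against the mean of the 2 libraries (TPM, log axis) for expressed genes above 0 in both; the 10 genes are red and labelled, other genes grey, and dashed lines mark 1.4-fold and 0.6-fold. Irs2, Sik1 and Igfbp1 lie above the upper line at very different levels, the other 7 lie between the lines, and 4 genes fall outside the plotted range.

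The wider pathway was described with lists of genes drawn from general knowledge. They were set up with earlier results of these data known, so their values are a description and no independent support. For scale, 45.8% of all 11623 expressed genes lay above 0, 1.09% were up and 0.301% were down. From the receptor to AKT and its targets, 30 of 32 listed genes were expressed, and 1 of them, Irs2, was up and 0 were down. The other 29 lay between -0.19 for Rheb, the GTPase that activates mTORC1, and 0.23 for Irs1. The median of the 30 was -0.01. Akt2, the main hepatic AKT, was at 43.90 TPM in the KO and 42.51 TPM in the WT library, a ratio of 1.04 (0.981 to 1.11). Pik3r1, the regulatory subunit of PI3-kinase, was at 29.95 and 30.87 TPM. Apart from Irs2, every expressed transcript of this cascade list thus lay inside the fold limits.

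Of 21 expressed genes that damp the signal (phosphatases, adaptors, Socs and Trib genes), 1 was up and 0 were down, with a median of -0.02. The gene up was Socs2, a suppressor of cytokine and growth hormone signalling, at 17.97 TPM in the KO and 10.58 TPM in the WT library, a log2 change of 0.71 (2.31% of its windows are found in another gene). Trib1 was the lowest of this list. Its relatives Trib3 (5.36 TPM in KO, 6.35 in WT) and Trib2 (1.34 and 1.59 TPM) were also slightly lower in KO, with intervals of the ratio that hold 1.

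Of 15 expressed FOXO factors and partners, 0 were up or down, and the median was -0.04. They ran from -0.48 for Foxa2, a pioneer factor of hepatocytes that insulin also restrains, at 14.70 TPM in the KO and 20.96 TPM in the WT library, to 0.12 for Cebpb, a factor induced in the acute phase and in fasting.

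Genes known as FOXO targets in liver were split. Of 28, all expressed, 5 were up (Irs2, Igfbp1, G6pc, Bcl6 and Pdk4), 0 were down, and 12 lay above 0. The median was -0.03, and it was also -0.03 over the 23 that are not among the 10 genes above, of which 3 were up. G6pc was at 445.52 TPM in the KO and 204.76 TPM in the WT library, a log2 change of 1.12 and a ratio of 2.20 (2.14 to 2.26). Bcl6, a transcriptional repressor, was at 22.55 and 13.40 TPM, a log2 change of 0.71. Pdk4, the kinase that shuts off pyruvate dehydrogenase in fasting, was at 6.43 and 4.26 TPM, a log2 change of 0.50.

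Pck1, the gluconeogenic partner of G6pc, did not follow it. It was at 2203.87 TPM in the KO and 2550.60 TPM in the WT library, a ratio of 0.872 (0.864 to 0.880). The ratio of G6pc to Pck1 was 0.202 in KO and 0.0803 in WT. The lowest gene of the list was Gadd45a, a growth arrest gene, at 2.22 TPM in the KO and 3.54 TPM in the WT library, a log2 change of -0.50.

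In the cAMP, CREB and CRTC list, 31 of 33 genes were expressed, 3 were up (Sik1, G6pc and Pde4b) and 0 were down, with a median of 0.02. Pde4b, a phosphodiesterase that breaks down cAMP, was at 5.63 TPM in the KO and 3.59 TPM in the WT library, a log2 change of 0.53. The glucagon receptor Gcgr was at 161.55 and 150.49 TPM, and Creb1 at 7.37 and 7.75 TPM. The coactivators Crtc1 (2.01 and 1.36 TPM) and Crtc3 (5.10 and 3.91 TPM) had log2 changes of 0.35 and 0.31, larger than that of Crtc2 (0.09). Crtc1 is under the limit only with 1 TPM added: its ratio of scaled totals was 1.48 (1.17 to 1.88), past 1.4-fold, and that of Crtc3 was 1.31 (1.13 to 1.52). The lowest of the list was Fgf21, a fasting hormone of the liver, at 2.93 TPM in the KO and 5.50 TPM in the WT library, a log2 change of -0.73 on 31 and 79 estimated reads. Its ratio of scaled totals was 0.530 (0.338 to 0.812), so by that measure Fgf21 passed the lower limit and the list had 1 gene down.

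Relatives of Ppargc1a and its partners gave 12 expressed genes, of which 0 were up and 1 was down, with a median of -0.03 and Tfam, a mitochondrial transcription factor, highest at 0.10. The gene down was Lpin1, a phosphatidate phosphatase that also coactivates with PGC1 alpha, at 173.38 TPM in the KO and 307.53 TPM in the WT library, a log2 change of -0.82. The paralog Ppargc1b, at 4.76 and 6.43 TPM, had a log2 change of -0.37, close to that of Ppargc1a.

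Among 9 expressed genes for IGF-binding proteins and their partners, Igfbp1 was the 1 gene up, 0 were down, and the median was -0.01. Igfbp2, the other binding protein that is known to rise in fasting, was at 554.71 TPM in the KO and 402.12 TPM in the WT library, a log2 change of 0.46 that lies just under the limit. Igf1 was at 178.96 and 179.87 TPM. Igfbp5, with a log2 change of -0.46 at 1.15 and 1.95 TPM, was the lowest. Its ratio of scaled totals was 0.588 (0.455 to 0.756), past the lower limit, so the count of 0 down rests on the added 1 TPM.

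Transcripts listed here as raised by insulin in liver leaned the other way from Irs2 and Igfbp1. Of 16 expressed genes, 0 were up, 3 were down and 15 lay below 0, with a median of -0.31 against -0.01 over all genes. Among all expressed genes, 45.8% lay above 0 and 0.301% were down. The largest difference was that of Gm6484 (an older symbol of Angptl8, an inhibitor of lipoprotein lipase that feeding induces), at 28.32 TPM in the KO and 76.34 TPM in the WT library, a log2 change of -1.40. Thrsp, a promoter of lipogenesis, was at 186.89 and 387.02 TPM, a log2 change of -1.05. Lpin1 was the remaining gene down. It is also listed above with PGC1 alpha, a coactivator of the fasting programme, so it is not a clear case of a transcript raised by insulin. The list was not checked for other genes of this kind. Srebf1, through which insulin acts on lipogenesis, was at 59.07 and 60.33 TPM. The highest was Mlxipl, the glucose-sensing factor ChREBP, at 0.20.

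**Figure D3:**
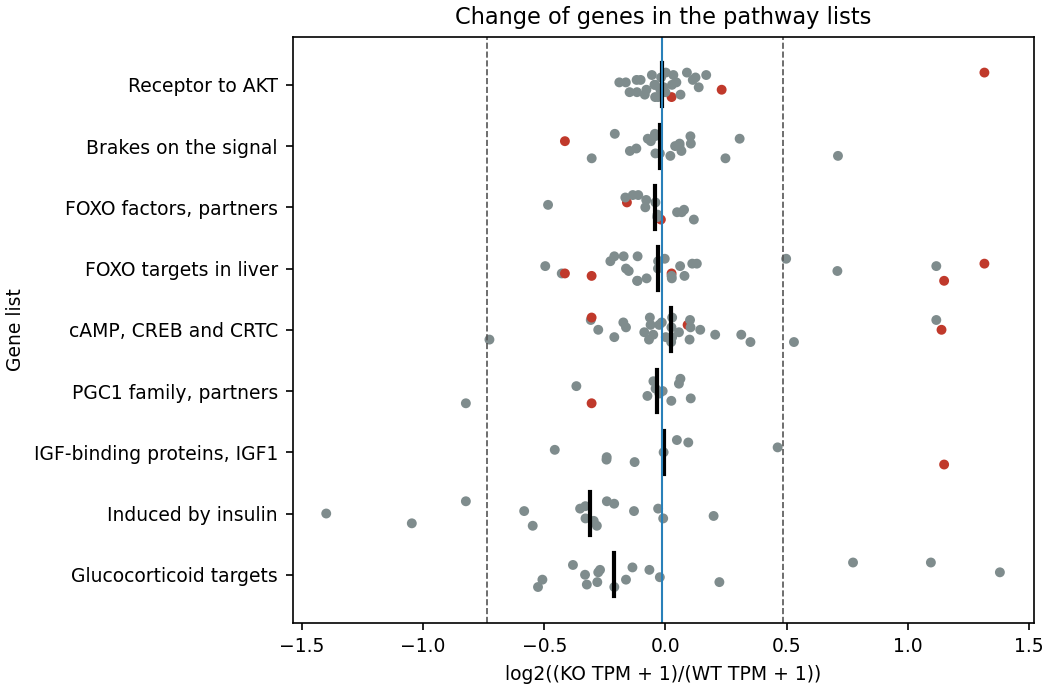
Log2 change of each expressed gene in 9 gene lists (1 point per gene, red for the 10 genes of this account; a gene can be in several lists); black bars are list medians, the blue line the median of all genes (-0.01), and dashed lines 1.4-fold and 0.6-fold. Irs2, Igfbp1 and Sik1 stand far to the right in lists whose medians are near 0. The list labelled as induced by insulin has its median at -0.31 and that of glucocorticoid targets at -0.21. Mt2, of the glucocorticoid targets, lies furthest to the right (1.38).

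Markers of other cells of the liver were looked at beside these results. For scale, 45.8% of all expressed genes lay above 0. All 12 Kupffer cell markers were expressed, 11 of them lay above 0 with a median of 0.17, and their summed level was 422.95 TPM in the KO and 372.96 TPM in the WT library. Of 12 stellate cell markers 3 lay above 0 (246.49 and 279.14 TPM), of 12 endothelial markers 1 (252.37 and 274.21 TPM), and of 5 expressed cholangiocyte markers 2 (66.3 and 70.09 TPM for all 8 listed). Of 12 blood cell markers 5 were expressed and 3 of these lay above 0 (738.86 and 690.86 TPM for all 12); the lowest was the globin gene Hbb-bs at -0.89. Of 11 markers of pancreas, fat and muscle 1 reached a mean of 1 TPM, Cela1. Of all these markers, 0 were listed at 0 in both libraries. In bulk RNA, fewer cells of a type and less RNA per cell cannot be told apart. The part of these shifts in the results above was not tested.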

How the data were processed

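Liver RNA was pooled by genotype (equal masses per mouse) and made into 1 library each with a stranded total RNA kit. Per the labels and the study's methods, the authors converted reads with CASAVA 1.8.2 and ran RSEM 1.2.09 with Bowtie on mm10. They deposited TPM per gene (RSEM's posterior mean, scaled between libraries: column sums of 1005325 for KO and 994702 for WT). The authors also deposited a signal per library from EBSeq, the estimated reads divided by a size factor, for 16318 genes. The remaining columns of that table hold the authors' own comparison (fold changes and probabilities) and were not used. Its signal columns carry condition numbers and were assigned by the order KO against WT in the table's title and the column names of the study's own list of all genes.

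The most frequent signal above 0 (1.16 in KO, 0.860 in WT) was taken as 1 read. On that scale 78.4% of the KO column and 75.0% of the WT column came within 0.02 of a whole number. This is too few for a count model, and p-values would in any case need more than 1 library per genotype. Estimated reads were rounded for the Clopper-Pearson intervals (95%), which cover counting error only. Changes used a pseudocount of 1 TPM, and lists and backgrounds used genes averaging 1 TPM or more. A gene counted as up from 1.4-fold and as down from 0.6-fold, if above 0 in both libraries.

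The members, lists and motifs were chosen with earlier results of these data known. Named were Pgrmc1, the 10 members, list genes past the fold limits, each list's highest and lowest gene, and the neighbours by rank of members past the limits; other genes were picked with their values in view. 3 list symbols were matched through RefSeq synonyms. Coordinates are from RefSeq on GRCm38, and strand overlaps from GENCODE. The calls and intervals were run on simulated libraries that held counting error alone, on the scale of the authors' signal. That run cannot speak to the spread between mice or to the added 1 on the TPM scale. Alternatives were another pseudocount, the authors' signal, centring, rescaling after leaving out the 50 most abundant genes, other fold limits and, for all genes and the lists, other minimum levels. Python 3.11.15 was used with scipy 1.17.1, pandas 2.3.3, numpy 2.4.6 and matplotlib 3.10.9.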

Additional observations from a re-analysis of the deposited data

How the results depend on the processing

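No paired analysis was possible because there was only 1 pool of each genotype. Irs2, Igfbp1 and Sik1 were up, and 0 members were down, under all alternatives of pseudocount, table, scaling and fold limits, 2-fold and 0.5-fold included. Other minimum levels were run for all genes and the lists only; Sik1 has a mean under 10 TPM and is left out at that minimum. No member's log2 change moved by more than its counting error, and 1 gene, Foxo1, close to 0, changed sign on centring. The median over genes averaging 10 TPM or more was -0.02 as deposited and -0.01 with the authors' signal.

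Counts over all genes moved more. Against 127 genes up and 35 down, there were 266 and 70 with a pseudocount of 0.1 TPM, 286 and 72 with the authors' signal, 31 and 13 at 2-fold and 0.5-fold, 48 and 17 with a minimum of 10 TPM, and 118 down at the mirror of 1.4-fold. Over the pathway lists, against 11 up and 3 down, 6 were up at 2-fold, 7 were up with a minimum of 10 TPM, 5 were down with the authors' signal (Fgf21 and Igfbp5 joined) and 9 at the mirror limit. Stricter limits and minimum levels lower a count, and a wider limit or smaller pseudocount raises it, by construction. The authors' signal also had 1 added, but on a scale of reads (Irs2 in KO was at 1141.48 there and at 18.15 TPM). The added 1 therefore acts there as a smaller pseudocount. How much of the change with the authors' signal this makes up was not tested. The ratios of Irs2 to Irs1, Foxo1 to Foxo3, Igfbp1 to Igfbp2 and Sik1 to Crtc2 kept their direction with the authors' signal. Depth sets the counting intervals, and the spread between mice was not measured.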

Other observations

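Genes known as glucocorticoid targets, several of which are also raised in fasting, were split. Of 17 expressed, 13 lay below 0, with a median log2 change of -0.21 against -0.01 over all genes, 0 were down and 3 were up. Among all expressed genes, 45.8% lay above 0, 1.09% were up and 0.301% were down. Fkbp5, a chaperone that serves as a readout of glucocorticoid action, was the lowest, at 34.86 TPM in the KO and 50.62 TPM in the WT library. Tat, tyrosine aminotransferase, was at 1434.74 and 1738.63 TPM. The genes up were Mt2, a metallothionein (55.90 TPM in KO, 20.86 in WT), Lcn2, a secreted acute phase protein (11.03 and 4.63 TPM), and Sgk1, a kinase (29.63 and 16.91 TPM). Their log2 changes were 1.38, 1.10 and 0.77. Sgk1 and AKT phosphorylate FOXO proteins at shared sites, and Sgk1 was higher in KO while Akt1 (26.46 and 24.82 TPM) and Akt2 were close to equal. FOXO phosphorylation was not measured, and a link between it and the Sgk1 transcript was not tested. With 1 pooled library per genotype none of these differences has a replicate check.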
